A study of Homo sapiens with 6 samples.

Results

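The NEK kinases are serine/threonine kinases related to the mitotic regulator NIMA of fungi, and NEK2 is the member that binds and phosphorylates the splicing factor Sam68 in the study from which these data come. The genes examined here are NEK1, NEK2, NEK3, NEK4, NEK6, NEK7, NEK8, NEK9, NEK10 and NEK11. They were taken by gene symbol, and all 10 were found among the 74852 loci of the expression table. MDA-MB-231 cells, a human breast cancer line of the triple-negative (TNBC) subtype, received either a control pool of 4 non-targeting siRNAs (si-CTRL, 3 libraries) or 4 pooled siRNAs that target SAM68 (si-SAM68, 3 libraries). Both groups carried no other manipulation and were transfected in 2 rounds. The sample labels place the harvest 24 h after the last round, whereas the methods of the study give another time. All results therefore come from a single cell line after transient silencing, and the question asked was whether loss of Sam68 left the RNA of NEK2 and its relatives at the same level.

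NEK2 accumulates in late interphase and mitosis and phosphorylates the linker that holds the centrosomes together, so that they can part before the spindle forms. NEK9 is activated in mitosis by CDK1 and PLK1 and in turn activates NEK6 and NEK7, which act on spindle motors such as KIF11. NEK7 has a separate role as a binding partner of the inflammasome sensor NLRP3. NEK1 and NEK8 work at cilia, and NEK1, NEK4, NEK10 and NEK11 have been tied to the response to DNA damage. Kinase activity is set largely by phosphorylation and degradation of the proteins, which RNA levels do not measure.

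Values are normalized read counts, that is, reads on a locus divided by the size factor of the library. The 6 libraries held between 52625492 and 82568487 reads on all loci, and each member had between 172 and 5162 reads in each library. The silenced gene, KHDRBS1, which encodes Sam68, fell in all si-SAM68 libraries, to 4.13% of its si-CTRL mean (limma adjusted p = 2.13e-09, log2 fold change -4.60). VIM, CD44 and EGFR, taken as markers of a triple-negative mesenchymal-like line, were abundant, with at least 3138 normalized counts in each library. ESR1 did not exceed 15.2, PGR was at 0, and the epithelial markers CDH1 and EPCAM did not exceed 4.60 and 9.20. ERBB2 RNA, in contrast, ranged from 2413 to 3447. The leukocyte marker PTPRC and the endothelial marker PECAM1 stayed at or below 13.6 and 16.2. In si-SAM68 replicate 2, 15.1% of reads fell on an rRNA locus, against 1.83% to 3.17% elsewhere, and values without that library are given where a call rests on it. The labels number the replicates without saying whether they came from separate cultures, so that p-values measure only the spread between these libraries, which may be technical.

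NEK2 was the most abundant NEK kinase for its length. Divided by the length of all annotated exons of the gene, its level in si-CTRL cells was 1111 ± 73.9 normalized counts per kb (SD, n = 3). NEK6 followed with 816 ± 64.5 per kb, NEK7 with 755 ± 75.6 and NEK4 with 686 ± 55.7. These 4 kinases, 3 of them with roles at the mitotic spindle or centrosome, made up 81.6% of the summed per-kb level of the 10 genes. NEK1 stood alone in the middle at 395 ± 18.1 per kb. The remaining members were far lower, with NEK11 at 98.5 ± 3.70, NEK9 at 92.0 ± 12.9, NEK3 at 78.6 ± 12.3, NEK8 at 71.7 ± 7.64 and NEK10 at 22.6 ± 0.753 normalized counts per kb. From NEK2 down to NEK10 the mean per-kb level differed 49.2-fold. Several neighbours in this order could not be told apart, because the ranges of their si-CTRL libraries overlapped, namely NEK6 and NEK7, NEK7 and NEK4, NEK11 and NEK9, NEK9 and NEK3, and NEK3 and NEK8. NEK2, NEK1 and NEK10 overlapped with no neighbour.

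**Figure D1:**
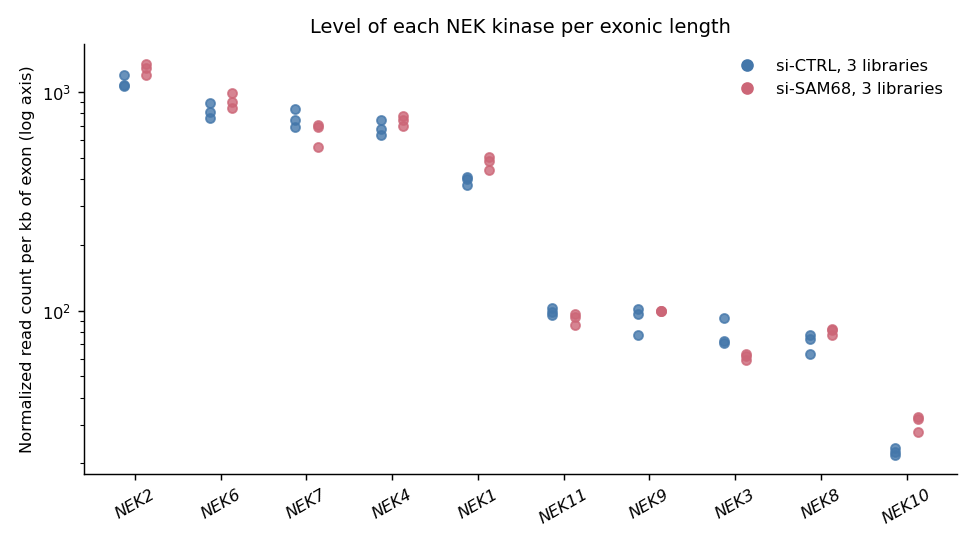
Normalized read count per kb of exon, on a log axis, for the 10 NEK kinases in the order of their si-CTRL mean; each point is 1 library of si-CTRL (blue) or si-SAM68 (red) cells. NEK2 lies highest in both groups and NEK10 lowest, at 1111 and 22.6 per kb in si-CTRL cells.

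In si-SAM68 cells the ends of the order were the same, with NEK2 at 1278 ± 75.0 and NEK10 at 30.8 ± 2.55 normalized counts per kb (SD, n = 3), and the highest 4 members took 81.0% of the summed level. NEK4, at 739 ± 37.9 per kb, came before NEK7, at 650.2 ± 80.0, in these cells, but their libraries overlapped. NEK9 came before NEK11 and NEK8 before NEK3, in both cases with no overlap between their si-SAM68 libraries. The order of close neighbours depended on the length used. With the length of the longest transcript in place of all exons, NEK7 came before NEK6 in si-CTRL cells, at 998 and 997 per kb. On that scale NEK7 also stayed before NEK4 in si-SAM68 cells, at 859.6 and 780.2 per kb, and NEK11 before NEK9, at 169 and 129 per kb.

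Silencing of Sam68 left every NEK kinase within 1.5-fold of its control mean. The largest fitted fold change was 1.36 (NEK10) and the smallest 0.791 (NEK3). After Benjamini-Hochberg adjustment over all 18849 loci tested, 1 of the 10 members had a limma adjusted p under 0.05, NEK10, which rose. Of all loci tested, 10.7% passed this threshold, with 4.47% higher and 6.23% lower. The thresholds of the study were an unadjusted p of at most 0.05 with a fold change of at least 1.5. Applied to the limma fit, they were met by no member and by 7.67% of all loci tested. The study applied them to its own analysis, so that this share is not the study's own. No member met them with edgeR or DESeq2 on the recovered reads. An unadjusted p of at most 0.05 alone was reached by 4 members, NEK1, NEK2, NEK3 and NEK10, against 27% of all loci. The groups did not overlap for these same 4 members, 3 of them higher and 1 lower in si-SAM68 cells. Groups did not overlap at 33.9% of all loci (16.6% higher and 17.3% lower). The shares of members called thus lay near those of all loci. The fitted log2 fold change was above 0 for 7 members and below 0 for 3 (NEK3, NEK7 and NEK11), with a median of 0.14 against 0.0050 over all loci tested.

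For 8 of the 10 members the whole 95% interval of the change lay within 1.5-fold in either direction. The exceptions were NEK10, whose interval reached 0.71 on the log2 scale, and NEK3, whose interval reached -0.64. A change of 1.5-fold corresponds to 0.58 on this scale.

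**Figure D2:**
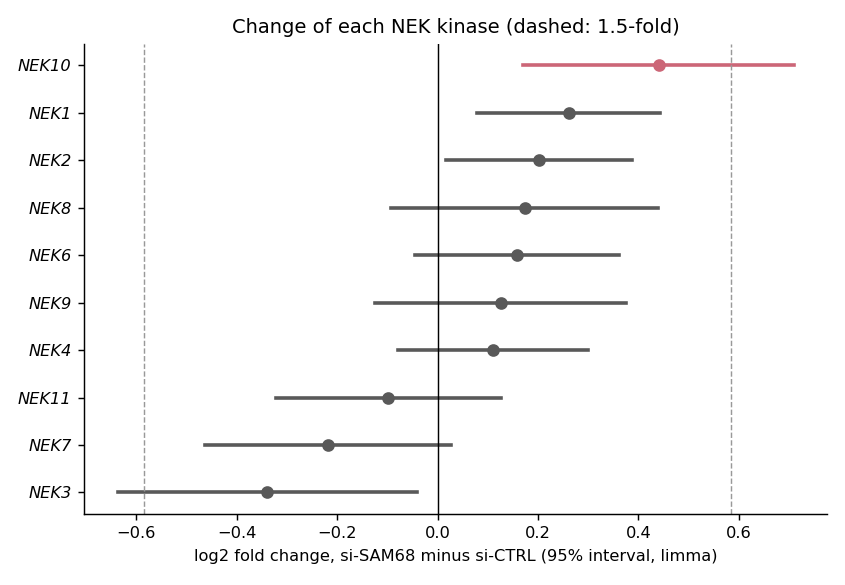
Log2 fold change of each NEK kinase in si-SAM68 against si-CTRL cells (points) with its 95% interval (bars) from limma; dashed lines mark a 1.5-fold change and red an adjusted p under 0.05. NEK10 is highest at 0.44, NEK3 lowest at -0.34, and only the intervals of these 2 cross a dashed line.

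NEK2 (locus GSHG0002936, chromosome 1 from 211831601 to 211848972 of hg19) was read at 3702, 3323 and 3290.2 normalized counts in si-CTRL replicates 1, 2 and 3. In si-SAM68 replicates 1, 2 and 3 it was read at 3989, 3708 and 4169. The lowest si-SAM68 library stood just above the highest si-CTRL library, so that the groups did not overlap but nearly touched. The mean went from 3438 ± 229 to 3955 ± 232 (SD, n = 3). On the log2 scale the difference was 0.20 (standard error 0.083, 95% interval 0.02 to 0.39), with an unadjusted p of 0.036 and an adjusted p of 0.152 from limma. NEK2 RNA was therefore not called as changed. An exact permutation test of the mean log2 values gave p = 0.1 (two-sided), the smallest p that 3 libraries against 3 allow. Without si-CTRL replicate 1, the highest control library, the log2 fold change was 0.26 and the limma adjusted p was 0.031. A single library thus decided on which side of the threshold NEK2 lay. In bulk RNA, a different share of cells in mitosis and a different amount of NEK2 RNA per cell cannot be told apart, and the gene counts do not separate the splice variants of NEK2.

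NEK10, the least abundant member per kb, showed the clearest separation. It promotes arrest in G2 after ultraviolet irradiation. The locus (GSHG0021585, chromosome 3 from 27152395 to 27410951 of hg19) had 215, 210.2 and 224 normalized counts in the si-CTRL replicates and 312, 267 and 305 in the si-SAM68 replicates. These values rested on 172 to 310 reads per library. All si-SAM68 libraries lay above the control range, and replicate 2 was the lowest of them. The mean rose from 216.5 ± 7.21 to 295 ± 24.4 (SD, n = 3), a log2 fold change of 0.44 (limma adjusted p = 0.045, standard error 0.121). With the replicate number as a block, the limma adjusted p was 0.066, so that the call was lost. It was also lost when any library other than si-CTRL replicate 1 was left out. Leaving out si-CTRL replicates 2 and 3 gave a limma adjusted p of 0.0999 and 0.0899, and leaving out si-SAM68 replicates 1, 2 and 3 gave 0.130, 0.0807 and 0.159. Its size stayed between 0.40 and 0.51 on the log2 scale in these fits.

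NEK1, a kinase of cilia and DNA repair (chromosome 4 from 170314422 to 170533778 of hg19), had 3113, 3403.5 and 3326 normalized counts in si-CTRL cells. In si-SAM68 replicates 1, 2 and 3 the counts were 3643, 4002 and 4163, each above the control range. This difference of 0.26 on the log2 scale (limma adjusted p = 0.070, standard error 0.082) did not pass. On the recovered reads DESeq2 gave an adjusted p of 0.036, whereas edgeR gave 0.071.

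NEK3 has been described in prolactin receptor signalling in breast cancer cells. It lies on chromosome 13 from 52706775 to 52733996 of hg19 and was the only member whose si-SAM68 libraries all lay below the control range. Its normalized counts were 396, 309 and 302 in the si-CTRL replicates and 266, 254 and 270.3 after silencing. Control replicate 1 stood well above the other 5 libraries. With a log2 fold change of -0.34, NEK3 did not pass (limma adjusted p = 0.137, standard error 0.133). Without control replicate 1 it was -0.21 (limma adjusted p = 0.256), which is over 1.5 times closer to 0.

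**Figure D3:**
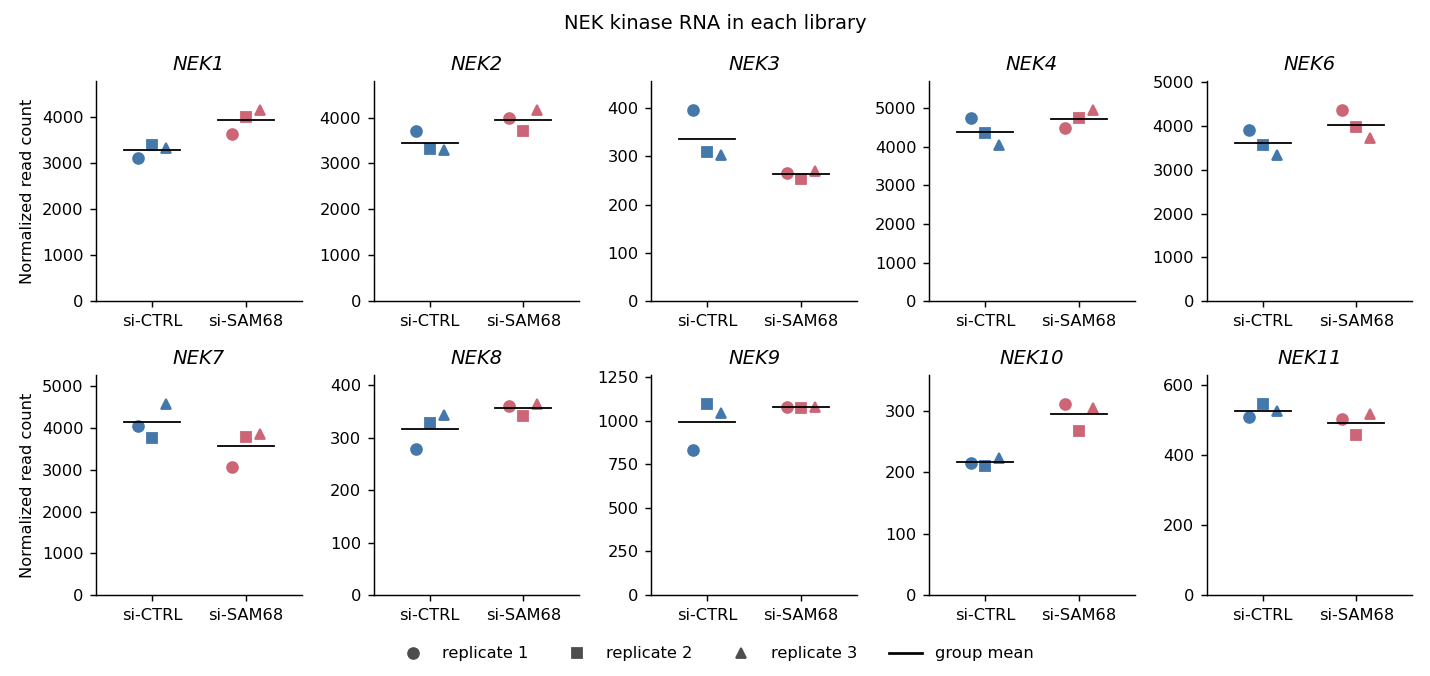
Normalized read count of each NEK kinase in each library (symbols by replicate number) with the group mean (line); each panel has its own axis from 0. The groups are apart in NEK1, NEK2, NEK3 and NEK10, whereas the other 6 panels overlap.

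None of the 3 kinases of the mitotic cascade, NEK9, NEK6 and NEK7, passed the test. NEK9 (chromosome 14 from 75548819 to 75593778 of hg19) was read at 834, 1097 and 1045 normalized counts in the si-CTRL replicates and at 1075, 1074 and 1076 in the si-SAM68 replicates. The si-SAM68 libraries were nearly equal and sat inside the control range. The log2 fold change was 0.13 (limma adjusted p = 0.508), and it was 0.0058 without control replicate 1, the low library. NEK6 (chromosome 9 from 127019885 to 127114717) had 3909.5, 3567 and 3343.5 normalized counts in si-CTRL cells, against 4371, 3982 and 3718 after silencing, with overlap (log2 fold change 0.16, limma adjusted p = 0.298). NEK7 (chromosome 1 from 198126108 to 198291550) had 4058, 3770.5 and 4588 in si-CTRL cells, against 3063, 3775 and 3862 after silencing, again with overlap (log2 fold change -0.22, limma adjusted p = 0.235). Thus NEK6 had the higher mean and NEK7 the lower mean after silencing, and neither was called.

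NEK6 and NEK7 are the closest paralogs of the family, with nearly the same catalytic domain, and the log2 ratio of their normalized counts was compared within each library. It was -0.05, -0.08 and -0.46 in the si-CTRL replicates and 0.51, 0.08 and -0.05 in the si-SAM68 replicates. The ranges just overlapped, since si-SAM68 replicate 3 was at the level of control replicate 1. The means were -0.20 ± 0.23 and 0.18 ± 0.30 (SD, n = 3), a difference of 0.38 that did not pass an unpaired test (exact permutation test, two-sided, p = 0.2, where 0.1 is the smallest p possible). Between libraries of the same number the difference was 0.57, 0.16 and 0.40, higher in si-SAM68 cells in all 3 pairs. The paired exact test gave p = 0.25 (two-sided), the smallest that 3 pairs allow. Leaving out si-SAM68 replicate 1 gave 0.21, and leaving out si-CTRL replicate 3 gave 0.25. How the counting treated reads that match both paralogs is not given in the sources used here.

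NEK4, NEK8 and NEK11 also overlapped between groups. NEK4 (chromosome 3 from 52744796 to 52804965 of hg19), a kinase of the DNA damage response, ranged from 4047 to 4756 normalized counts in si-CTRL cells and from 4473 to 4956 after silencing (log2 fold change 0.11, limma adjusted p = 0.436). NEK8 (chromosome 17 from 27055798 to 27069784), which acts at the base of the cilium and is mutated in cystic kidney disease, ranged from 279 to 343 and from 342 to 365 (0.17, limma adjusted p = 0.383). NEK11 (chromosome 3 from 130745694 to 131069308), which promotes the degradation of CDC25A after DNA damage, ranged from 509 to 548 and from 459 to 518 (-0.10, limma adjusted p = 0.574). NEK11 was also the only member whose locus overlapped an expressed named gene, ASTE1, by 5 bases. Loci without a gene symbol overlapped NEK11 by 25372 and 1535 bases, at means of 31.9 and 12.6 normalized counts. Another overlapped NEK6 by 2878 bases, at a mean of 6.76. Whether strand was used in counting is not given in the sources used here.

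The libraries did not deviate evenly. In 7 of the 10 members si-CTRL replicate 1 was the control library farthest from the group median, with distances between -0.33 and 0.36 on the log2 scale. Leaving out any single library turned the direction of the fold change in none of the 10 members. The fits without control replicate 1 moved NEK3 from -0.34 to -0.21, NEK9 from 0.13 to 0.0058 and NEK8 from 0.17 to 0.08.

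**Figure D4:**
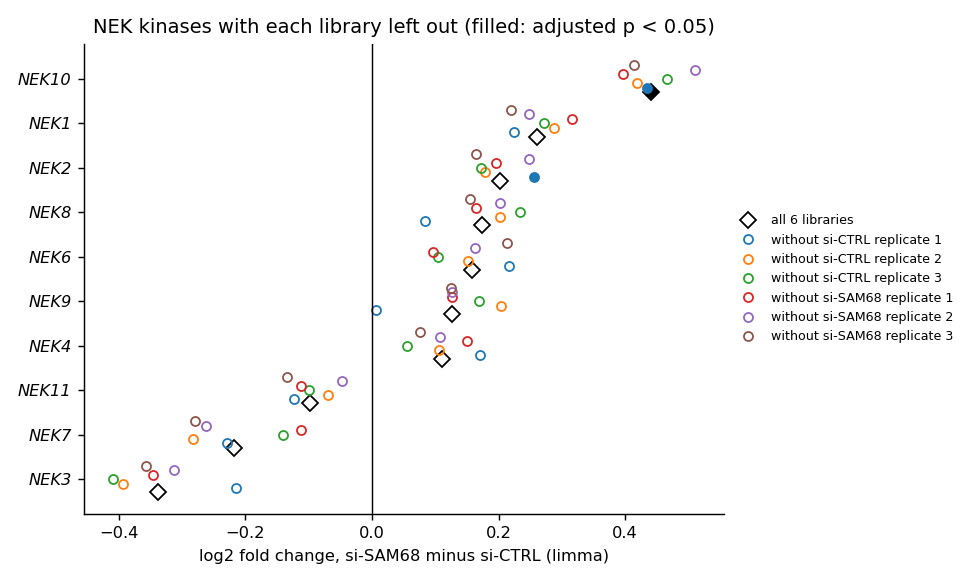
Log2 fold change of each NEK kinase with all 6 libraries (diamonds) and with any 1 of them left out (circles), from limma; filled symbols have an adjusted p under 0.05. No member crosses 0, and the filled symbols are NEK10 with all libraries and NEK10 and NEK2 without si-CTRL replicate 1.

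An siRNA can lower RNAs other than its target when bases 2 to 8 of its guide strand, the seed, pair with a 3′UTR. The 4 SAM68 siRNAs are shown because their seeds could bear on the members directly. They are listed as the sense strand of 19 bases, and capitals mark the 7 bases that a target shares when it pairs with the seed.
siSAM68_1: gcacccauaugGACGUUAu
siSAM68_2: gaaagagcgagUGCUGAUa
siSAM68_3: uaugauggaugAUAUCUGu
siSAM68_4: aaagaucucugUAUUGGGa
Each of the 4 matched the coding sequence of KHDRBS1 in full and no transcript of a NEK kinase in full. GENCODE (GRCh38) was searched for seed matches, taking the longest 3′UTR a gene has. A match to any of the 4 was found in 2 of the 10 members, NEK7 and NEK10, and in 26.2% of 19111 genes. The 3 matches are given with the bases around them and capitals at the match.
NEK7, siSAM68_2: ttacagttttcTGCTGATa
NEK7, siSAM68_3: tctcagtgaatATATCTGc
NEK10, siSAM68_4: tcagaataataTATTGGGt
They begin at bases 279 and 2063 of the 3′UTR of NEK7 and at base 471 of that of NEK10. NEK7, with 2 matches, had a log2 fold change of -0.22 that did not pass, and NEK10, with 1, was the member that rose. NEK2 had no match to a SAM68 seed. The control pool matched 9 of the 10 members, all but NEK8, and 50.1% of all genes, so that the control level of these members was measured under siRNAs with seed matches too. The part of these matches in the results was not tested.

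NEK2 belongs to the genes that are transcribed late in the cell cycle, and its promoter is shown for that reason. Promoter windows of 250 bases before to 50 bases after the start, from RefSeq (GRCh38.p14), were found for 9 of the 10 members. Both strands were searched for the CCAAT box (CCAAT), for the cell cycle homology element (TTTGAA or TTCGAA) and for the E-box bound by MYC (CACGTG). The CCAAT box was present in 4 members, NEK2, NEK6, NEK10 and NEK11, and in 34.6% of all 35116 promoters. Neither of the other motifs was in any member's window, against 16.4% and 7.26% of all promoters. A member counted when any of its windows held the motif (16 windows for the 9 members), whereas these shares are of single windows. NEK2 held 2 CCAAT boxes on its coding strand, the minus strand of chromosome 1, and they are shown with capitals at the motif.
NEK2, chr1:211675673-211675697: ttcttcttagCCAATgagagaggcg
NEK2, chr1:211675641-211675665: ccaccgcctgCCAATagactgcgag
Between the end of each motif and the transcription start lie 61 and 29 bases. NEK10, which rose, and NEK2, NEK6 and NEK11, which did not pass, shared this motif, and a match of letters is not evidence that a factor binds there.

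Genes that work with the NEK kinases, or were listed beside them, were described next as 7 lists. Of 89 genes listed, 88 were matched and 86 were tested, and 6 rose and 2 fell (limma adjusted p under 0.05). These 8 genes are 9.3% of those tested, against 10.7% of all loci. On the recovered reads edgeR called the same 8 (2026 of all loci), whereas DESeq2 called 17 (2789 of all loci). The other 9 were CEP68, PLK1, TTK, EML4, ANKS6, RPGRIP1L, CHEK1, PTBP1 and MYC, of which CEP68, TTK, EML4, RPGRIP1L and MYC were named after their values were seen. The counts by list below are those of limma. An unadjusted p of at most 0.05 was reached by 30 of the 86, against 27% of all loci. By list, these were 3 of 14 centrosome linker, 7 of 17 mitotic, 2 of 15 spindle and 5 of 8 inflammasome genes. They were also 6 of 12 ciliary and 4 of 13 DNA damage genes, and 3 of 7 in the list with MYC. Groups did not overlap for 36 of the 86, against 33.9% of all loci. The largest changes were in the NLRP3 inflammasome list rather than in the mitotic ones.

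**Figure D5:**
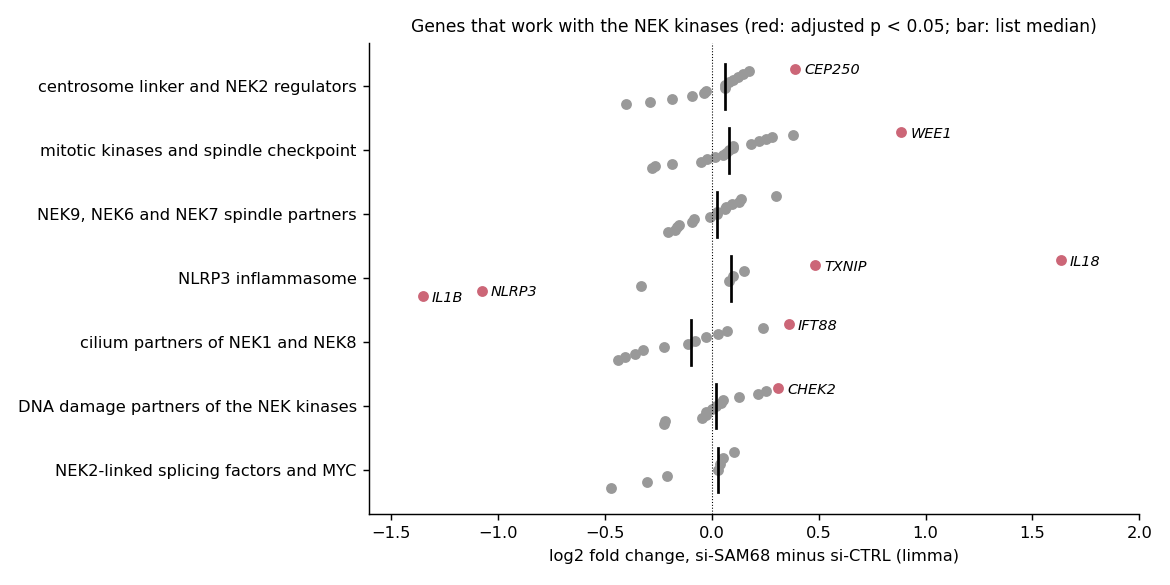
Log2 fold change from limma of the 86 tested genes (points) in 7 lists of genes that work with the NEK kinases or were listed beside them. Red points have an adjusted p under 0.05 and vertical bars are list medians. The list medians lie between -0.10 and 0.09, and the points farthest from 0 are IL18, IL1B and NLRP3.

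NLRP3 senses danger signals and, with NEK7 bound, assembles the inflammasome that activates caspase-1. Of 8 tested genes of this list, 2 rose, 2 fell and 4 did not pass, with a median log2 fold change of 0.09. NLRP3 had 1021, 796 and 928 normalized counts in the si-CTRL replicates and 378, 474 and 449 in the si-SAM68 replicates. It fell by 1.08 on the log2 scale (standard error 0.127, limma adjusted p = 0.0012), and no library overlapped. IL1B, the cytokine that caspase-1 matures, had 3773, 3031 and 3413 normalized counts in si-CTRL cells, against 1157.5, 1547 and 1310.3 after silencing. It fell by 1.35 (standard error 0.121, limma adjusted p = 3.15e-04). IL18, the other cytokine of this pathway, moved the opposite way, from 38.7, 44.6 and 32.3 to 119, 114 and 129.6 normalized counts. It rose by 1.63 (standard error 0.193, limma adjusted p = 0.0012), again without overlap. TXNIP, a thioredoxin-binding protein that can engage NLRP3, rose by 0.48 (standard error 0.071, limma adjusted p = 0.0034), from 8742 ± 200.4 to 12239 ± 561 (SD, n = 3). The adaptor PYCARD, which joins NLRP3 to caspase-1, had 0 reads in all 6 libraries, which allows up to 3 reads per library. NLRP3, IL1B, IL18 and TXNIP kept their calls in all 19 alternative analyses, whereas NEK7 was called in none.

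In the list of the centrosome linker and NEK2 regulators, 1 of 14 genes rose and none fell, with a median of 0.06. The gene was CEP250, which encodes the linker protein C-Nap1, a substrate of NEK2. Its normalized counts were 907, 934 and 804 in si-CTRL cells, against 1148.5, 1205 and 1110.4 after silencing, without overlap (log2 fold change 0.39, standard error 0.094, limma adjusted p = 0.028). The call was lost when si-CTRL replicate 3 was left out (limma adjusted p = 0.0976), and also on leaving out si-SAM68 replicates 1, 2 and 3 (0.0807, 0.127 and 0.0866). CROCC, which encodes rootletin, the fibre protein that NEK2 also phosphorylates, had 276 ± 46.2 and 268 ± 25.8 normalized counts (SD, n = 3; log2 fold change -0.03, limma adjusted p = 0.909). The direction for CROCC turned under quantile normalization and in 2 of the fits with a library left out.

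Among 17 mitotic kinases and spindle checkpoint genes, 1 rose and none fell, with a median of 0.08. WEE1, the kinase that holds CDK1 inactive, had 1576, 1965 and 1907 normalized counts in the si-CTRL replicates and 3243, 3254 and 3548 in the si-SAM68 replicates. It rose by 0.89 (standard error 0.099, limma adjusted p = 0.0010) and kept its call in all 19 alternatives. CDK1, which drives entry into mitosis, had 11838 ± 1358 and 14355 ± 970.2 normalized counts (SD, n = 3; log2 fold change 0.28, limma adjusted p = 0.0945). PLK1, which acts upstream of NEK9 and NEK2, had 9177 ± 798 and 7632 ± 417 (log2 fold change -0.26, limma adjusted p = 0.0771). Neither passed in limma, and DESeq2 on the recovered reads gave PLK1 an adjusted p of 0.042. In both the groups did not overlap, as in 8 of the 17 genes of this list and at 33.9% of all loci.

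None of the 15 tested spindle partners of NEK9, NEK6 and NEK7 passed. An unadjusted p of at most 0.05 was reached by 2 of the 15, against 27% of all loci. On the recovered reads, edgeR called none and DESeq2 1 of them, EML4. KIF11, the spindle motor that NEK6 phosphorylates, had a log2 fold change of 0.13 (limma adjusted p = 0.346) and the dynein light chain DYNLL1, which binds NEK9, of -0.01 (limma adjusted p = 0.971). For DYNLL1 the sign turned in 3 of the fits with a library left out.

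Of 12 tested ciliary partners of NEK1 and NEK8, 1 rose and none fell, and the median was -0.10. IFT88, a transport protein of the cilium, went from 984 ± 48.4 to 1267 ± 107 normalized counts (SD, n = 3; log2 fold change 0.36, standard error 0.095, limma adjusted p = 0.039). INVS, the anchor of the ciliary compartment in which NEK8 resides, had a log2 fold change of 0.07 (limma adjusted p = 0.610), and ANKS6, which activates NEK8, of -0.36 (limma adjusted p = 0.063, DESeq2 adjusted p = 0.019). Of 13 DNA damage partners, 1 rose and none fell, with a median of 0.02. This was CHEK2, a checkpoint kinase, from 2313 ± 145 to 2869 ± 90.4 (log2 fold change 0.31, standard error 0.081, limma adjusted p = 0.037). CHEK1, which activates NEK11, went from 2731 ± 186 to 3249 ± 135 without passing in limma (0.25, limma adjusted p = 0.0799, DESeq2 adjusted p = 0.0475), and CDC25A was at 2760.0 ± 85.6 and 2714 ± 135 (-0.02, limma adjusted p = 0.869). With the replicate block, the limma adjusted p was 0.0569 for IFT88 and 0.0512 for CHEK2, so that both calls were lost. Both were also lost without any single library other than si-CTRL replicate 1, at up to 0.155 for IFT88 and 0.144 for CHEK2. Without si-SAM68 replicate 2, the limma adjusted p was 0.115 for IFT88 and 0.119 for CHEK2.

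None of the 7 genes in the list of splicing factors and MYC passed in the limma fit. An unadjusted p of at most 0.05 was reached by 3 of the 7, against 27% of all loci. On the recovered reads edgeR called none and DESeq2 2 of them, PTBP1 and MYC. The list also holds QKI, which the study used as an uncorrelated factor and for which it detected no interaction with NEK2. PTBP1 went from 17520 ± 417 to 15151 ± 414 normalized counts (SD, n = 3; log2 fold change -0.21, limma adjusted p = 0.0783), and HNRNPL from 9164 ± 897 to 9472 ± 316 (0.05, limma adjusted p = 0.743). MYC, which was named after its values were seen, had 7621.5, 5055 and 5034 normalized counts in si-CTRL cells, against 4192, 4272 and 4079.5 after silencing. All si-SAM68 libraries lay below the control range, in which replicate 1 stood high (log2 fold change -0.47, limma adjusted p = 0.0654). MYC passed with DESeq2, and in limma without si-CTRL replicate 1 and without si-CTRL replicate 2. The mean of MYC was thus lower and that of NEK2 higher in si-SAM68 cells, and neither passed in limma with all 6 libraries.

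The pattern of NEK2 over the 6 libraries was closest to that of ZFP69 and ZNF155, which encode zinc finger proteins, MASTL, the mitotic kinase also known as Greatwall, ANKRD49 and SPAG8. Pearson's r with NEK2 on the log2 scale was 0.991, 0.990, 0.987, 0.983 and 0.981, chosen as the highest among 12112 genes with a mean of at least 50. An r of at least 0.95 was found for 44 of these genes. These points share group, library and scaling, and none of the 5 genes passed the test between groups. MASTL, for example, had 5228, 4837 and 4830.3 normalized counts in si-CTRL cells, against 5334, 5165 and 5451 after silencing (log2 fold change 0.10, limma adjusted p = 0.416). Within the family, r with NEK2 ran from -0.57 for NEK7 to 0.86 for NEK10, and over all pairs of members from -0.92 (NEK3 and NEK8) to 0.89 (NEK8 and NEK9).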

How the data were processed

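RNA-seq of polyadenylated RNA was made from 3 si-CTRL and 3 si-SAM68 libraries, grouped and numbered by their titles. The authors deposited a signal per locus, namely the reads counted on each FAST DB locus (hg19) divided by a DESeq2 size factor. The submitters' processing notes name STAR 2.4.0, SAMtools, Picard and FastQC. The kit named in the labels is stranded, and strand use in counting is not given in the sources used here. Of 74852 loci, 41493 were at 0 in every library. In each library 100% of values were whole multiples of its smallest step, within 0.01 read, and were taken as reads.

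Loci with a mean of at least 10 (18849) were tested with limma 3.58.1 in R 4.3.3 (lmFit, eBayes with trend) on log2(normalized count + 1), which understates changes of low genes, with Benjamini-Hochberg adjustment over all of them. Exon lengths and 3′UTRs came from GENCODE (GRCh38) by gene symbol, for length and sequence only. Members, lists and rules were chosen with earlier results of these data known. The text names all members, KHDRBS1, the first 2 genes of each list and up to 4 more that passed, and the 5 genes most correlated with NEK2.

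Alternatives were pseudocounts of 0.1 and 5, no minimum and a minimum of 50, TMM factors, newly computed size factors, quantile normalization, a robust or no trend in eBayes, the replicate number as a block, omission of each library, and edgeR 4.0.16 and DESeq2 1.42.0 on the recovered reads. edgeR with the block was added after seeing the data. The fits called 2017 loci with limma, 2026 with edgeR and 2789 with DESeq2, which gave 2209 loci no adjusted p. Deviations from the group means correlated at 0.105, 0.231 and 0.125 between libraries of the same number, and at -0.125 to 0.00687 otherwise. These values depend on each other, because deviations were centred within each group. The numbers may pair the libraries, which the labels do not state. The main fit held no block, and fits with the block are among the alternatives. On simulated counts for 18849 loci, limma called 161 of 200 changed genes (36 of 67 at 1.5-fold) and 8 unchanged ones. Those counts had an assumed dispersion and independent libraries, without an outlying library or pairing. The rates therefore need not hold for the real libraries. Replicates differed by at least 12.48 times sampling variance (chi-square per degree of freedom).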

Additional observations from a re-analysis of the deposited data

How the results depend on the processing

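With 3 libraries per group, small changes of single genes were at the limit of what could be called. The number of members with an adjusted p under 0.05 was 1 in the main analysis. It was 0 without a minimum, without a trend in eBayes, with the replicate block and in edgeR with the replicate block, and 2 with DESeq2. It ranged from 0 to 2 when a library was left out, being 2 (NEK2 and NEK10) without si-CTRL replicate 1 and 0 without each other library. The number of partner genes passing was 8, against 5 without a trend and 17 with DESeq2, and ranged from 5 to 15 with a library left out. It was 15 without si-CTRL replicate 1 and 5 without si-CTRL replicate 3 or any si-SAM68 replicate. With the replicate block it was 6. The count over all 18849 loci tested moved as well, from 2017 in the main analysis to 2839 without si-CTRL replicate 1. It was 1592 and 1103 without si-CTRL replicates 2 and 3, and 923, 808 and 625 without si-SAM68 replicates 1, 2 and 3. Over all loci it was 899 without a trend, 1697 with the block and 2789 with DESeq2. The log2 fold change of NEK2 passed only without si-CTRL replicate 1, at 0.2567, and its values with a library left out ran from 0.1637 to 0.2567. Its adjusted p ranged from 0.0308 to 0.387 over the 19 alternatives, that of NEK10 from 0.0300 to 0.159. The block changed no call beyond NEK10, IFT88 and CHEK2 among the genes named. With fewer libraries the fits had fewer residual degrees of freedom, and other causes were not tested.

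Some small log2 fold changes changed sign. CROCC was at 0.0003887 under quantile normalization, and with a library left out it ran from -0.1491 to 0.08904 (0.08904 on leaving out si-CTRL replicate 3, 0.0307 on leaving out si-SAM68 replicate 2). DYNLL1 ran from -0.06592 to 0.03837, with 0.03837 and 0.00802 on leaving out si-CTRL replicates 2 and 3 and 0.0349 on leaving out si-SAM68 replicate 2. CDC25A ran from -0.05497 to 0.01543 (on leaving out si-SAM68 replicate 1) and HNRNPL from -0.03217 (on leaving out si-CTRL replicate 1) to 0.09642. None of these passed the test. The cause was not tested. The correlation of same-numbered libraries depended on the loci used, being 0.0608, 0.123 and 0.194 at a mean of at least 50.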

Other observations

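NEK5, a family gene outside the 10 members, lies next to NEK3 on chromosome 13 (from 52638902 to 52703228 of hg19). It had 0 reads in each si-CTRL library and 2, 2 and 4 reads in si-SAM68 replicates 1, 2 and 3, under the minimum for testing. A count of 0 allows up to 3 reads per library, so that no fold change is given.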
